A study of Homo sapiens with 9 samples.

Results

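The YAP and TEAD pathway was followed through 10 genes, chosen by name (YAP1, WWTR1, TEAD1, CTGF, CYR61, ANKRD1, AMOTL1, AMOTL2, LATS2 and AJUBA), in 3 groups of IMR90, a fibroblast line from human fetal lung with a limited life in culture. They are 10 of the 64253 gene identifiers counted, each symbol had a single identifier, and all 10 passed the filter on low counts. The 9 libraries came in 3 groups of 3, lettered a to c. Control cells carried the pLKO.1 lentiviral vector alone, named as empty in one label and as GFP in the treatment protocol. The shRRM2 cells carried a hairpin against RRM2, the small subunit of the enzyme that makes deoxyribonucleotides, and are labelled senescent. The shRRM2/shp16 cells carried that hairpin and a hairpin against p16 (CDKN2A), and are labelled as having bypassed senescence. Each group was infected a second time after 24 hours, with the p16 hairpin in shRRM2/shp16 and with the vector in the others. All were then selected in 3 ug/mL puromycin for 7 days and grown in 2% oxygen from population doubling 30. One hairpin was used per target. There was no group with only the p16 hairpin, and any change with the second hairpin is read on cells that also carry the first. The labels do not say whether libraries came from separate infections, and p-values then measure the spread between these libraries, which may be technical.

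YAP1 and TAZ (the product of WWTR1) are transcriptional coactivators that respond to cell shape, cell contact and matrix stiffness. In the Hippo cascade the kinases encoded by STK3 and STK4, with the scaffold SAV1, activate the kinases LATS1 and LATS2 with their MOB1 cofactors, and LATS phosphorylation keeps YAP1 and TAZ out of the nucleus or marks them for degradation. Unphosphorylated YAP1 and TAZ bind TEAD factors at DNA and switch on genes such as CTGF, CYR61 and ANKRD1, which in fibroblasts accompany adhesion, contraction and wound repair. Some targets, LATS2 and AMOTL2 among them, encode inhibitors of the pathway and so close a feedback loop. The measurements below are of RNA, and neither phosphorylation nor the location of YAP1 was measured.

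In GENCODE release 29 on GRCh38 each of the 10 is a protein-coding gene. The coactivators and their partner are YAP1 (ENSG00000137693) at chr11:102110461-102233423 (plus), WWTR1 (ENSG00000018408) at chr3:149517235-149736714 (minus) and TEAD1 (ENSG00000187079) at chr11:12674591-12944483 (plus). The target genes are CTGF (ENSG00000118523) at chr6:131948176-131951373 (minus), CYR61 (ENSG00000142871) at chr1:85580761-85583962 (plus) and ANKRD1 (ENSG00000148677) at chr10:90912096-90921276 (minus). The regulators are AMOTL1 (ENSG00000166025) at chr11:94706431-94876753 (plus), AMOTL2 (ENSG00000114019) at chr3:134355874-134375479 (minus), LATS2 (ENSG00000150457) at chr13:20973032-21061547 (minus) and AJUBA (ENSG00000129474) at chr14:22971174-22982642 (minus). Genes annotated as overlapping them had at most 27 reads in any library.

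The TEAD recognition motif was looked for in the 250 bases before each start site in RefSeq (GRCh38.p14). Any link between the matches and the responses of the genes was not tested. The table held 11 windows for 8 of the 10 genes, and CYR61 and TEAD1 had none in it. The motif searched was GGAATG and its reverse complement CATTCC. At least 1 match was found in 11.9% of all 35116 windows of this length, at least 2 in 0.94% and at least 3 in 0.0826%. CTGF had 3 matches, ANKRD1 had 2, and YAP1, the second listed start of AMOTL2 and the second listed start of AJUBA had 1 each. The windows of WWTR1, AMOTL1 and LATS2 had no match. The CTGF window is printed whole because it held the most matches, at chr6:131951373-131951622 on the minus strand, 5′ to 3′ in the direction of transcription, with the matches in capitals.
CTGF: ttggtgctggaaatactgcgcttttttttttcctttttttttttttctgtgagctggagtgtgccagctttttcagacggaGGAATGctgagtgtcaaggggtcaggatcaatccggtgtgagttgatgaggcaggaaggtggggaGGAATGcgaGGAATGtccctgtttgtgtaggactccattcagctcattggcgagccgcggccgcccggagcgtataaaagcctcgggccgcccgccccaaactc
The last bases of its 3 matches lay 164, 99 and 90 bases before the start, so that the nearer matches were spaced closely. For the other genes 30 bases around each match are shown in the same orientation, to let the flanks be compared. They lie at chr10:90921290-90921319 and chr10:90921198-90921227 (ANKRD1, minus strand), chr3:134374499-134374528 (AMOTL2, minus), chr14:22976884-22976913 (AJUBA, minus) and chr11:102110273-102110302 (YAP1, plus).
ANKRD1, far match: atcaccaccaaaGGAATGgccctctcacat
ANKRD1, near match: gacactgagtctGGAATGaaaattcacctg
AMOTL2: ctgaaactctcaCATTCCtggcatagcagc
AJUBA: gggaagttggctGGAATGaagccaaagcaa
YAP1: cgggagtgtgcaGGAATGtagcaacttgca
GENCODE release 29 begins ANKRD1 at 90921276, upstream of the RefSeq start, so its near match falls inside the GENCODE gene, as do the AMOTL2 and AJUBA matches. An AP-1 motif, TGANTCA, was found once in the ANKRD1 window (TGATTCA), did not overlap a TEAD match, and was found in none of the other 10 windows. It was present in 6.57% of all windows. A match is a string of letters and says nothing about occupancy, and no binding was measured.

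Gene-assigned counts ranged from 15770895 to 24873291 per library. Levels are given as CPM, counts scaled to a common library total with TMM factors, and, where genes are compared with each other, as RPKM, which also divides by gene length. RRM2 averaged 485 ± 5.23 CPM in the control libraries, fell to 62.1 ± 1.86 under its hairpin alone, and was at 177 ± 3.00 with both hairpins. For levels and shares ± is the SD over 3 libraries, and for log2 fold changes it is the SE from the edgeR test. CDKN2A, counted as a whole gene without separating the p16 transcript from others, stood at 6.02 ± 0.11, 6.50 ± 0.46 and 4.28 ± 0.32 CPM, on only 79 to 142 reads a library. It was not called in shRRM2 against control (0.11, edgeR adjusted p 0.431). It was lowest with both hairpins (against shRRM2 a log2 fold change of -0.60 ± 0.13, SE, edgeR adjusted p 7.0e-05). All 10 fibroblast markers examined were detected, with a summed level of 3702 to 3836 RPKM in control, 3337 to 3435 in shRRM2 and 2956 to 3036 in shRRM2/shp16. Single markers differed in direction: between control and shRRM2/shp16 VIM went from 1050 to 1116 RPKM to 419 to 438, while COL3A1 went from 250 to 257 RPKM to 528 to 542 and PDGFRA from 26.7 to 27.6 RPKM to 72.6 to 73.4. Of the 4 epithelial markers SFTPC was at 0, EPCAM reached at most 0.666 RPKM, and the list summed to 5.23 to 5.65 RPKM in control, 2.72 to 3.05 in shRRM2 and 0.805 to 1.37 in shRRM2/shp16, most of it CLDN4 in control. Of the 5 endothelial markers CDH5 had at most 1 read, while TEK alone was at 13.1 to 24.6 RPKM and the list summed to 13.4 to 14.5, 13.9 to 14.9 and 23.6 to 25.4 RPKM in the 3 groups. The 4 leukocyte markers summed to at most 1.52 RPKM, with CD3E at 0 and PTPRC at 2 reads or fewer. The share of uniquely aligned reads assigned to no annotated feature moved with the groups. It was 17.7% to 18.9% in control, 27.7% to 28.8% in shRRM2 and 23.5% to 24.4% in shRRM2/shp16. Whether these reads lay in introns, on the opposite strand or outside genes cannot be told from the counts. The part of these shifts and of the marker lists in the results was not tested. In such bulk samples fewer cells of a type and less RNA per cell cannot be told apart.

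Compared per unit of length, CTGF was the most abundant of the 10 in every group, at 429 ± 3.54, 516 ± 5.11 and 464 ± 2.18 RPKM in control, shRRM2 and shRRM2/shp16. CYR61 came second in each, at 201 ± 1.26, 280 ± 4.17 and 97.3 ± 0.15 RPKM. Below them in control stood YAP1 (55.0 RPKM), TEAD1 (51.5), AMOTL2 (37.9), WWTR1 (24.3), AMOTL1 (22.8), LATS2 (17.5), AJUBA (8.50) and ANKRD1 (2.88). YAP1 and TEAD1 were the only neighbours in that order whose libraries overlapped, and in the other groups no neighbours did. ANKRD1 was lowest in control and in shRRM2/shp16 (1.30 ± 0.10 RPKM), but in shRRM2, at 15.2 ± 0.24 RPKM, it stood above WWTR1 (14.0 ± 0.63) and AJUBA (10.2 ± 0.35).

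**Figure D1:**
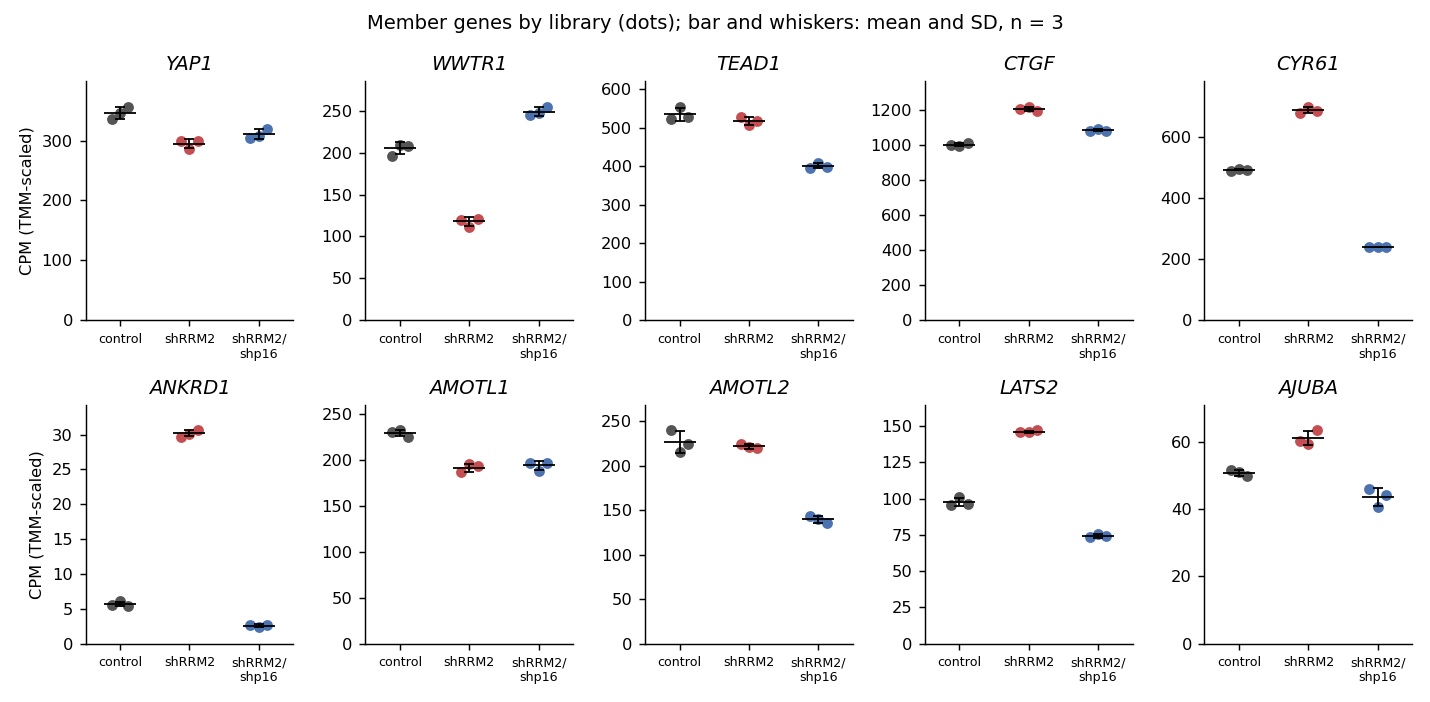
TMM-scaled CPM of each of the 10 genes (y axis, from 0) in the 9 libraries, by group (x axis). Dots are libraries, and bars with whiskers are the mean and SD of 3. ANKRD1 stands near 30 CPM in shRRM2 against about 6 in control, while CYR61, AMOTL2, LATS2 and TEAD1 are lowest in shRRM2/shp16 and WWTR1 is lowest in shRRM2.

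The first comparison asks how the pathway stood in cells labelled senescent. Between shRRM2 and control 8 of the 10 were called (adjusted p below 0.05), 5 higher and 3 lower. In this comparison 60.9% of all 16561 tested genes were called, 29.0% higher and 31.8% lower, so the number of calls among the 10 is not far above the background. The libraries of the 2 groups were fully separate for 8 of the 10 (63.6% of all genes), and 1 changed at least 2-fold (10.1% of all genes). The median log2 fold change of the 10 was 0.11, against 0.00 over all tested genes. By role, the 3 secreted or nuclear target genes rose, both coactivators fell, and TEAD1 was not called.

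ANKRD1 encodes a muscle-type ankyrin repeat protein found in the nucleus and sarcomere, and is a common readout of YAP activity. It was counted at 5.57, 6.09 and 5.42 CPM in the control libraries and at 29.7, 30.1 and 30.6 CPM in shRRM2, on 91 to 133 and 468 to 534 reads. Every shRRM2 library was far above every control library, and the log2 fold change was 2.40 ± 0.08 (adjusted p 6.1e-27), or 5.30-fold. Only 43 of the 16561 tested genes had a higher log2 fold change.

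CYR61 encodes a secreted matricellular protein of the CCN family that binds integrins. Its control libraries were at 489, 495 and 493 CPM and its shRRM2 libraries at 679, 699 and 685 CPM. The groups were well apart, at a log2 fold change of 0.48 ± 0.03 (adjusted p 2.1e-20). CTGF, its fibrosis-associated relative in the same family, went from 1002, 995 and 1012 CPM to 1204, 1220 and 1196 CPM. These groups did not overlap either, but the rise was small, at 0.27 ± 0.02 on the log2 scale (adjusted p 3.8e-13). The ratio of CYR61 to CTGF RPKM, which does not depend on library scaling, was 0.464 to 0.474 in control and 0.538 to 0.546 in shRRM2.

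LATS2, a kinase that phosphorylates and so restrains YAP1 and TAZ, was at 95.9, 101 and 96.2 CPM in control and 146, 146 and 147 CPM in shRRM2. It rose in every library, at a log2 fold change of 0.58 ± 0.04 (adjusted p 2.3e-18). Its paralog LATS1 had a log2 fold change of 0.12 (adjusted p 0.0387), and the LATS2 to LATS1 ratio in RPKM went from 2.79 to 3.12 in control to 4.01 to 4.10. AJUBA, a LIM protein that binds and inhibits LATS kinases, was at 51.6, 51.0 and 49.8 CPM in control and 60.3, 59.4 and 63.4 CPM in shRRM2. The groups did not overlap, and the log2 fold change was 0.26 ± 0.05 (adjusted p 8.3e-06). In limma fits to the authors' 9 RPKM columns, 1 of which differs from what its counts give, AJUBA kept its sign without passing the threshold (adjusted p 0.0511 to 0.113), while it passed in the matching columns. AJUBA overlaps AL132780.3, another protein-coding gene, on its own strand, which was listed with 0 reads. Ambiguous reads were tallied apart from the genes, so reads that fit both may be missing from AJUBA. How many there were is not given in the sources used here.

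The angiomotin-like proteins tether YAP1 at junctions and actin. AMOTL1 was at 230, 232 and 225 CPM in control and at 187, 195 and 193 CPM in shRRM2. It fell, at a log2 fold change of -0.26 ± 0.03 (adjusted p 1.5e-09) and no overlap. AMOTL2 was at 240, 216 and 225 CPM against 225, 221 and 220 CPM. Here the shRRM2 values lay within the control range, and the log2 fold change of -0.03 had a 95% interval of -0.10 to 0.03 (adjusted p 0.373). Its sign turned to 0.0091 with plain library-size scaling.

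Both coactivators were lower in shRRM2. WWTR1 was at 196, 209 and 208 CPM in control and at 120, 111 and 121 CPM in shRRM2. Its libraries were far apart, at a log2 fold change of -0.80 ± 0.04 (adjusted p 2.7e-23). This is 57.5% of the control level. YAP1 was at 336, 346 and 357 CPM against 299, 286 and 299 CPM. The groups did not overlap, but YAP1 fell by less, at a log2 fold change of -0.23 ± 0.03 (adjusted p 7.8e-09), and the WWTR1 to YAP1 ratio in RPKM went from 0.437 to 0.452 in control to 0.291 to 0.303. TEAD1, the most abundant DNA-binding partner, was at 523, 555 and 527 CPM and at 527, 507 and 517 CPM. These ranges overlapped, and its log2 fold change of -0.05 had a 95% interval of -0.10 to 0.01 (adjusted p 0.128). With no filter on low counts TEAD1 was called lower (-0.09, adjusted p 0.00613).

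**Figure D2:**
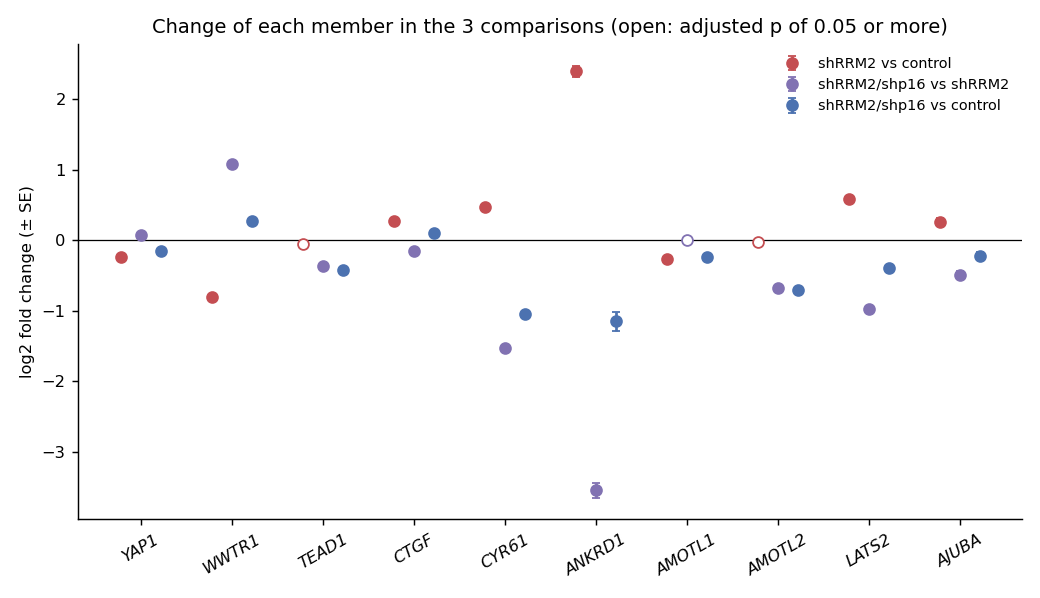
Fitted log2 fold change (y axis) of the 10 genes (x axis) in the 3 comparisons, with bars for the SE. Filled points passed an adjusted p of 0.05. ANKRD1 spans 2.40 in shRRM2 against control to -3.55 in shRRM2/shp16 against shRRM2, and WWTR1 goes from -0.80 to 1.08.

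The second comparison sets shRRM2/shp16 against shRRM2, and so asks about the p16 hairpin added to the RRM2 hairpin. RRM2 itself was 2.85-fold higher in shRRM2/shp16 than in shRRM2 (log2 fold change 1.51 ± 0.04, adjusted p 7.9e-34), and CDKN2A 1.52-fold lower. The p16 hairpin and the weaker loss of RRM2 therefore cannot be told apart in this comparison. It shares the shRRM2 libraries with the first, so values of the 2 are set side by side and are not independent. Of the 10 genes 9 were called, 2 higher and 7 lower, where 61.1% of all tested genes were called, 31.9% higher and 29.1% lower. Libraries were fully separate for 9 of the 10 (64.7% of all genes), and 3 changed at least 2-fold (11.8% of all genes). The median log2 fold change of the 10 was -0.43, against 0.01 over all genes. The target genes and the feedback inhibitors were lower, and WWTR1 was higher.

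With both hairpins ANKRD1 dropped to 2.69, 2.34 and 2.69 CPM, resting on 47 to 51 reads a library. All 3 values were below every control library as well as every shRRM2 library. Against shRRM2 the log2 fold change was -3.55 ± 0.10 (adjusted p 7.1e-31), or 11.7-fold lower, and 24 of the 16561 tested genes had a lower value. CYR61 was at 238, 239 and 239 CPM, with an SD of 0.38 CPM. It fell to 34.7% of its shRRM2 level, at a log2 fold change of -1.53 ± 0.03 (adjusted p 1.7e-38). CTGF did not follow it in size, with 1082, 1091 and 1082 CPM and a log2 fold change of -0.15 ± 0.02 (adjusted p 3.5e-07). The CYR61 to CTGF ratio was 0.209 to 0.210 in shRRM2/shp16, well under the 0.538 of the lowest shRRM2 library. For CTGF the limma fits to the 9 RPKM columns gave the same sign without a call (adjusted p 0.059 to 0.255).

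LATS2 was at 73.2, 75.8 and 74.3 CPM in shRRM2/shp16. This was below both other groups, at a log2 fold change against shRRM2 of -0.97 ± 0.04 (adjusted p 5.2e-26). AMOTL2, which had not been called in shRRM2, was at 144, 140 and 136 CPM and fell by 0.67 ± 0.03 on the log2 scale (adjusted p 6.6e-21). AJUBA was at 46.0, 40.5 and 44.3 CPM, below every shRRM2 library, and its log2 fold change was -0.49 ± 0.05 (adjusted p 1.3e-11). AMOTL1 was at 196, 188 and 196 CPM, within reach of shRRM2, and its log2 fold change of 0.01 had a 95% interval of -0.05 to 0.08 (adjusted p 0.705). With plain library-size scaling it was called higher (0.08, adjusted p 0.0348). The AMOTL2 to AMOTL1 ratio in RPKM was 1.16 to 1.25 in shRRM2/shp16, where it was 1.91 to 2.02 in shRRM2 and 1.56 to 1.75 in control.

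WWTR1 was at 245, 247 and 255 CPM in shRRM2/shp16, more than in any library of the other groups. Its log2 fold change against shRRM2 was 1.08 ± 0.03 (adjusted p 1.5e-28), or 2.12-fold. YAP1 was at 305, 308 and 320 CPM, just above its shRRM2 libraries, at a log2 fold change of 0.08 ± 0.03 (adjusted p 0.0244). That small call was lost with DESeq2 (adjusted p 0.0709), without shRRM2 replicate b (0.06, adjusted p 0.139) and without shRRM2/shp16 replicate c (0.06, adjusted p 0.129). The WWTR1 to YAP1 ratio reached 0.595 to 0.601. TEAD1 was at 396, 408 and 399 CPM, clear of both other groups, and fell by 0.37 ± 0.03 on the log2 scale (adjusted p 2.5e-15).

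The authors' deposited table lists WWTR1 at a log2 fold change of 1.08, LATS2 at -0.99, CYR61 at -1.49 and ANKRD1 at -3.48, each with a q-value of 4.4e-04, and AMOTL2 at -0.57 with a q-value of 8.4e-04. In the authors' deposited table AJUBA (-0.40, q 0.0635), TEAD1 (-0.42, q 0.112), CTGF (-0.13, q 0.328), YAP1 (0.05, q 0.860) and AMOTL1 (-0.08, q 0.907) are not significant.

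**Figure D3:**
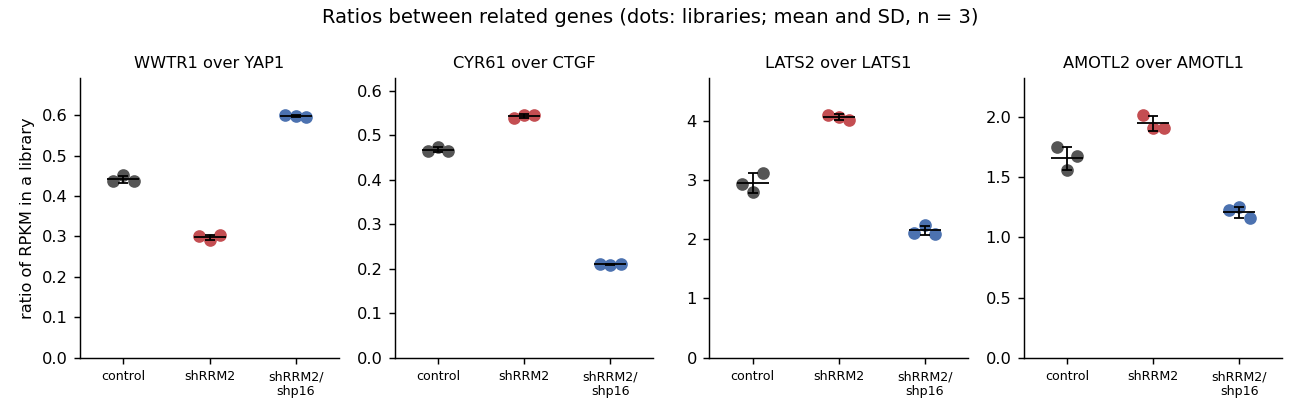
Ratio of RPKM values within a library (y axis, from 0) for 4 pairs of related genes, by group (x axis). Dots are libraries, and bars with whiskers are the mean and SD of 3. The WWTR1 to YAP1 ratio is lowest in shRRM2 (0.298) and highest in shRRM2/shp16 (0.598), and the other 3 ratios are highest in shRRM2 and lowest in shRRM2/shp16.

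The third comparison asks how far the doubly targeted cells stood from control. All 10 genes were called, 2 higher and 8 lower, where 62.4% of all tested genes were called, 30.0% higher and 32.4% lower. Libraries were fully separate for all 10 (66.2% of all genes), and 2 changed at least 2-fold (12.6% of all genes). The median log2 fold change was -0.32, against 0.01 over all genes. CYR61 was at 48.5% of control (log2 fold change -1.04 ± 0.03, adjusted p 2.5e-32) and ANKRD1 at 45.2% (-1.15 ± 0.13, adjusted p 6.1e-10). AMOTL2 followed at -0.70 ± 0.03 (adjusted p 5.3e-22), TEAD1 at -0.42 ± 0.03 (adjusted p 2.7e-17) and LATS2 at -0.39 ± 0.04 (adjusted p 3.2e-12). AMOTL1, AJUBA and YAP1 were lower by smaller amounts, at -0.24, -0.22 and -0.15. WWTR1 (0.28 ± 0.03, adjusted p 4.2e-10) and CTGF (0.11 ± 0.02, adjusted p 5.9e-05) were the only members above control. Plain library-size scaling, which moved the median of all genes to 0.119, took YAP1 to -0.05 (adjusted p 0.137). YAP1 was not called in any of the 4 limma fits to RPKM values either (adjusted p 0.181 to 0.423, and 0.357 in the matching columns). AJUBA was called in none of them (adjusted p 0.128 to 0.431), and ANKRD1 only in the matching columns (adjusted p 0.0545 to 0.730 in the other 3). In the fit to deposited values at a pseudocount of 1, CTGF (adjusted p 0.145) and LATS2 (adjusted p 0.0579) also missed the threshold.

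The wider pathway was described with 5 lists of genes. Their counts are to be read against all tested genes, of which 29.0% were higher and 31.8% lower in the first comparison, 31.9% and 29.1% in the second, and 30.0% and 32.4% in the third, with medians of 0.00, 0.01 and 0.01. Of the 25 genes of the Hippo kinase core and its upstream regulators, 12 were higher and 9 lower in shRRM2 against control (median 0.04, beside 29.0% and 31.8% of all genes), and 6 higher and 10 lower in shRRM2/shp16 against shRRM2 (median -0.05). The extremes were the scaffold SAV1 (0.74) and the regulator WWC1 (-0.96) in the former comparison. In the latter they were the atypical cadherin DCHS1 (1.18), which went from 47.0 to 106 CPM, and the tumour suppressor NF2 (merlin), which fell from 269 to 108 CPM (log2 fold change -1.32, adjusted p 5.3e-33). NF2 was also the lowest of the list against control, at -1.39, where 11 genes were higher and 11 lower (median 0.03). The medians thus stayed near those of all tested genes, and the kinase genes did not move one way.

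Among the coactivators, TEAD factors and VGLL cofactors, 8 of 10 could be tested, since VGLL1 and VGLL2 had 0 reads. In shRRM2 3 were higher and 4 lower (median -0.14), and in shRRM2/shp16 against shRRM2 3 were higher and 4 lower (median -0.22), where 60.9% and 61.1% of all genes were called. VGLL3, a cofactor that competes for TEAD binding, was the highest in the former (0.61) and the lowest in the latter (-1.20), passing from 102 to 155 and then to 67.4 CPM. TEAD2 had log2 fold changes of -0.66 and 0.96 in the 2 comparisons, TEAD3 of 0.21 and -0.57, and TEAD4 of -0.64 and -0.48. The make-up of the TEAD family differed accordingly. TEAD1 held 48.8% ± 1.23 of the summed TEAD RPKM in control, 52.6% ± 0.49 in shRRM2 and 43.0% ± 0.72 in shRRM2/shp16. TEAD2 held 24.4% ± 1.04, 17.2% ± 0.73 and 35.3% ± 0.32, so it came closest to TEAD1 in shRRM2/shp16. The sum itself was 106 ± 0.75, 94.6 ± 1.07 and 89.8 ± 0.68 RPKM.

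Of the 6 angiomotins and AJUBA-family LIM proteins, 2 were higher and 2 lower in shRRM2 (median -0.05), beside 29.0% and 31.8% of all genes. Against shRRM2 0 were higher and 5 lower in shRRM2/shp16 (median -0.38), beside 31.9% and 29.1% of all genes. All 6 were lower in shRRM2/shp16 than in control (median -0.31), where 32.4% of all genes were lower. AMOTL1, AMOTL2 and AJUBA were already counted above, so this list adds only 3 genes, AMOT, LIMD1 and WTIP (median -0.35 against control). AMOT fell most against control, with -0.94 in shRRM2 and -1.21 in shRRM2/shp16. The LIM genes LIMD1 and WTIP were lower in shRRM2/shp16 than in shRRM2, at -0.28 and -0.49.

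The 22 genes of a YAP/TAZ target signature written from the literature include 5 of the 10 genes. In shRRM2 against control 14 were higher and 4 lower, with a median log2 fold change of 0.15, beside 29.0% and 31.8% of all genes and their median of 0.00. Of the 17 that are not among the 10, 10 rose and 4 fell (median 0.10). In shRRM2/shp16 against shRRM2 4 rose and 16 fell (median -0.45, beside 31.9% and 29.1% of all genes), and without the 5 shared genes 4 were higher and 11 lower (median -0.31). Against control 4 were higher and 16 lower in shRRM2/shp16 (median -0.38, beside 30.0% and 32.4% of all genes), of which 3 and 12 lay outside the 10 (median -0.33). IGFBP3, which binds insulin-like growth factors and went from 820 to 235 CPM, was the lowest against control at -1.80. It was not called in shRRM2 (0.03, adjusted p 0.322). TGFB2, a transforming growth factor ligand, stood at the other end, at 1.52 against control and 0.60 against shRRM2. The signature therefore held genes with opposite changes, and its lower members were not all higher in shRRM2.

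**Figure D4:**
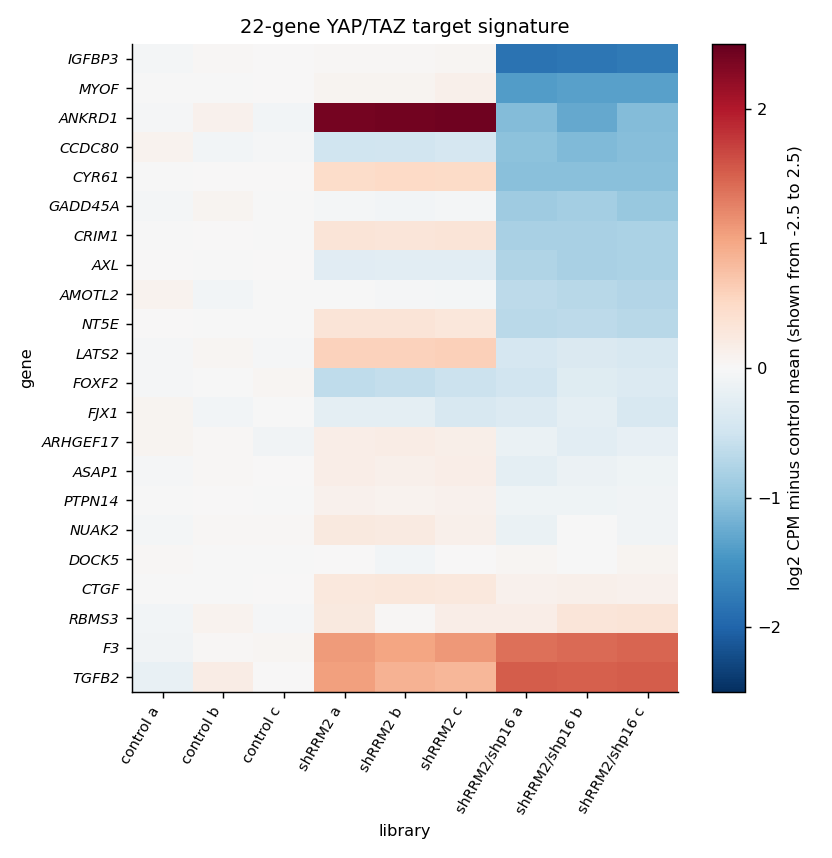
Log2 CPM minus the control mean (colour) of the 22 signature genes (rows, ordered by their mean in shRRM2/shp16) in the 9 libraries (columns). Most rows are blue in shRRM2/shp16, with IGFBP3 and MYOF at the top, while TGFB2 and F3 are red in both hairpin groups and ANKRD1 is deep red in shRRM2 only.

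The CCN family set CTGF and CYR61 among their relatives. WISP3 was not tested. In shRRM2 WISP1 had a log2 fold change of 1.54 (adjusted p 3.7e-23), and NOV was not called (0.10, adjusted p 0.351). WISP2 had one of -0.58 ± 0.2 (adjusted p 0.0137), at the low levels of 2.85 CPM in control and 1.9 CPM in shRRM2. These rest on 31 to 67 reads a library. In shRRM2/shp16 against shRRM2 NOV rose from 10.1 to 28.4 CPM (1.49, adjusted p 3.7e-21) and WISP1 from 30.7 to 63.2 CPM (1.04, adjusted p 6.7e-22), the comparison in which CYR61 fell by 1.53. Against control WISP1 stood at 2.58, the highest of the family, and CYR61 at -1.04, the lowest.

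**Figure D5:**
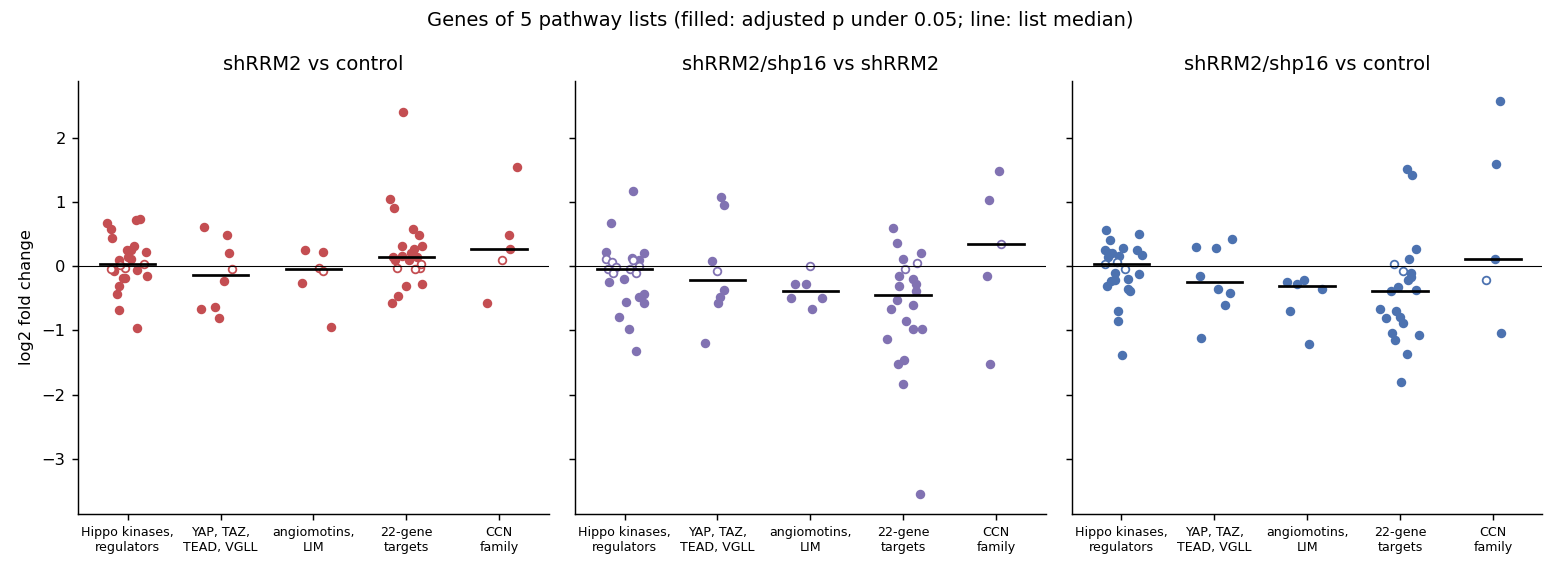
Log2 fold change (y axis) of each tested gene of the 5 lists (x axis) in the 3 comparisons (panels). Filled points passed an adjusted p of 0.05, and lines are list medians. The target signature has a median of 0.15 in shRRM2 against control and of -0.45 in shRRM2/shp16 against shRRM2, and the kinase list has medians of 0.04 and -0.05.

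Genes with the most similar profile were sought among 9467 with a mean of at least 10 CPM, by Pearson r of log2 CPM over the 9 libraries, which form 3 groups and share their scaling. CYR61 was most like NT5E (r = 0.999), LMO7 (0.999) and FMN1 (0.999). NT5E, a cell-surface nucleotidase, is itself in the signature and stood at 566, 700 and 355 CPM in control, shRRM2 and shRRM2/shp16. LMO7, which encodes a LIM-domain protein, stood at 330, 582 and 85.7 CPM, and FMN1, a formin, at 169, 354 and 38.4 CPM. CTGF was most like DIAPH2 (0.997), DRAM1 (0.996) and SRPX (0.996), and YAP1 like MTFR1 (0.988), RPL12P38 (0.980) and RAB4A (0.979). RPL12P38 is named as a pseudogene, and its reads cannot be separated with certainty from those of its parent gene.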

How the data were processed

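RNA of 9 IMR90 libraries was depleted of ribosomal RNA and sequenced from stranded libraries, per the labels' protocols. The authors deposited raw read counts per Ensembl gene in HTSeq layout, and a table of log2 RPKM values with their own log2 fold changes, p-values and q-values. The submitters' processing notes name TopHat2 2.0.9, Cufflinks 2.0.2, Cuffdiff and GRCh38, while the strand setting and annotation release are not given in the sources used here. Deposited log2 values are log2(x + 1) with x in RPKM divided by 1000, so the pseudocount of 1 far exceeds most levels. The values listed for shRRM2 replicate c differ from those its counts give (2.77% of 11138 well-counted genes within 0.5%, against 100% in the other 8). There were 0 value columns without a sample.

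The count model was edgeR 4.0.16 (R 4.3.3) with filterByExpr (16561 genes, 99.8% of counts), TMM, glmQLFit over all 9 libraries with 6 residual degrees of freedom and two-sided glmQLFTest, with Benjamini-Hochberg adjustment over all tested genes and a threshold of 0.05. Tally lines that name no gene were left out, and ambiguous reads were 3.74% to 6.02% of uniquely aligned reads. RPKM was computed from TMM-scaled counts and the gene length implied by the authors' table. All 9 within-group pairs of libraries differed by more than counting noise (chi-square per degree of freedom 1.44 to 2.95). Positions are from GENCODE 29 and promoters from RefSeq. The genes and lists were chosen with earlier results of these data known. Named genes were the 10, list extremes and paralogs of the 10. The fit was tested on simulated data with 200 changed genes of 16346 tested, where edgeR recovered 179 and made 11 false calls. Far fewer genes changed there than were called here, so it cannot show how the scaling behaves under so broad a change. Alternatives were RLE factors, DESeq2 1.42.0, other filters, 6 libraries, a replicate block, limma 3.58.1 on RPKM values, each library left out, and, added after the data were seen, no TMM.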

Additional observations from a re-analysis of the deposited data

How the results depend on the processing

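Over 20 alternatives and 30 fold changes (10 genes in 3 comparisons), 571 of 600 values kept their sign and their side of the threshold, 23 lost a call, 2 gained one and 4 changed sign. This count leaves size aside. ANKRD1 in shRRM2 against control, at 2.40 in the main fit, was 0.01 with limma on deposited values at a pseudocount of 1. The alternatives also include leaving out a library of the group not compared, which enters a fold change only through the shared fit. The sign changes were all of fold changes without a call: AMOTL2 in shRRM2 against control became 0.0091 without TMM scaling, 0.00075 with limma on the matching RPKM columns and 0.01 without control replicate a (-0.07 to 0.01 over the left-out libraries), and AMOTL1 in shRRM2/shp16 against shRRM2 became -0.00037 without shRRM2 replicate a (-0.00037 to 0.04). In shRRM2/shp16 against control the number of members called went from 10 to 5 with limma on the deposited log2 RPKM at a pseudocount of 1. It was 7 on the same values with a mean RPKM of at least 1, 8 in the matching columns and 7 on log2(RPKM + 0.1), and the cause was not tested. Leaving out each library gave 8 members in shRRM2 against control, where 9459 of 16935 to 10125 of 17000 tested genes were called. It gave 8 to 9 in shRRM2/shp16 against shRRM2, where 9520 of 16985 to 10366 of 17093 were called. In shRRM2/shp16 against control it gave 10, where the main fit called 62.4% of all genes. A replicate block on the letters gave 8, 9 and 10 and changed no call of a member. It called 10101 and 10134 of all 16561 tested genes in the first and second comparison. Deviations from the group means correlated at r from -0.078 to 0.189 between libraries of the same letter. Between libraries of different letters r was -0.149 to 0.136. Such weak values cannot show whether libraries of a letter share an infection or a batch. In shRRM2 against control limma called 6124 of 35910 genes on the deposited values and 6570 of 35910 on log2(RPKM + 0.1). It called 6522 of 12612 with a mean RPKM of at least 1, and 7718 of 35910 in the matching columns. The main fit called 10079 of 16561, so the counts rest on different sets of tested genes. ANKRD1 rests on 47 to 51 reads in shRRM2/shp16, which limits its precision there.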

Other observations

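In the deposited RPKM table the column of shRRM2 replicate c lists ANKRD1 at 5.98 RPKM, where the columns of replicates a and b list 15.0 and 15.1 and the 3 control columns 2.64 to 2.99. The count file of the same library holds 534 reads of ANKRD1, against 468 and 522 in replicates a and b. For WWTR1 that column lists 19.0 RPKM, where its 2 neighbours list 13.2 and 14.3 and the control columns 22.4 to 24.2.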
